A study of Rattus norvegicus with 18 samples.

Results

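Plasma membrane and vesicular solute carriers are the proteins that move amino acids, sugars, metals, nucleosides and ions across the cell surface and the membranes of organelles. Their genes were taken from the authors' 3 lists of changed genes by symbol: every symbol that starts with Slc and a number was kept, apart from the mitochondrial SLC25 family (30 listed genes) and 4 genes left out by name, Slc2a4, Slc16a1, Slc8a1 and Slc4a1. The rule also takes in carriers of the endoplasmic reticulum, Golgi and lysosome, and mitochondrial ones outside the SLC25 family, such as Slc8b1. It takes in 2 scaffold genes named after an exchanger as well. This gave 115 genes of 40 families, out of 6588 genes listed in at least 1 table. Of these, 94 were in the list for ZSF1 obese against ZSF1 lean (5700 genes), 103 in that for ZSF1 obese against WKY (5709 genes) and 5 in that for ZSF1 lean against WKY (233 genes).

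The tissue was the left ventricle of 18 male rats, 6 in each of 3 groups. ZSF1 obese rats, which had hypertension and metabolic syndrome, modelled HFpEF, heart failure in which the ejection fraction is preserved. ZSF1 lean rats were hypertensive, and the control group was of the WKY (Wistar Kyoto) strain. As background, ZSF1 animals are hybrids of a diabetic and a hypertensive rat strain, and obese ones carry defective leptin receptor alleles from both parents. No age, diet or treatment is given in the sources used here. The obese and lean animals differ from WKY in strain as well as in disease, so those causes cannot be told apart in the comparisons with WKY.

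A carrier works by binding its solute on one side of a membrane and releasing it on the other. Some are driven by the sodium gradient that the Na+/K+ pump maintains, some by protons, and others exchange one solute for another or let it run down its own gradient. In heart muscle, carriers bring in glucose, lactate, creatine, carnitine and amino acids, and exchange sodium, protons, bicarbonate and calcium to hold cell pH and the calcium level between beats. Macrophages and endothelium have carriers of their own, for instance for iron in the phagosome, and nerve endings use vesicular carriers to load transmitters.

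The authors listed a gene when its level in one group was 2 times that in the other or more, or 0.5 of it or less, with an adjusted p under 0.05 in DESeq2, and "rose" or "fell" is used here in that sense, of the first-named group. The lists hold 1 fold and 1 adjusted p for each gene and comparison, so levels in single rats and sequencing depth are unknown, the labelled tissue could not be checked against the level of its markers, and a gene absent from a list may have been unchanged, changed by less than the limit or not detected. The largest adjusted p in the lean against WKY list was 0.0003474, against 0.04978 in obese against lean and 0.04989 in obese against WKY. The lean against WKY list may have had a stricter limit, so a gene absent from it may still have had an adjusted p under 0.05. For that reason the lengths of the lists were not compared. Folds came from the authors' separate tables and did not multiply exactly: over the 79 genes in all 3 tables, the obese over WKY fold divided by the product of the other folds had a median of 1.17 and ran from 0.283 to 5.9.

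In obese against lean hearts 47 of the 94 listed carriers rose and 47 fell. That is 50% rising, against 53.4% of all listed genes. In obese against WKY hearts 59 rose and 44 fell, 57.3% rising against 54.0% of all listed genes. Folds of 4 and above or 0.25 and below were given for 33.0% of the listed carriers against lean and for 30.0% of all listed genes. Against WKY the shares were 32.0% of the carriers and 31.4% of all listed genes. Of 325 protein-coding genes that RefSeq names as such carriers (assembly GRCr8), 93 (28.6%) were listed against lean and 101 (31.1%) against WKY, beside 23.4% and 23.5% of all 23154 protein-coding genes, many of which the heart may not express. By direction, 42.6% of the carriers that fell against lean and 47.7% of those that fell against WKY were at 0.25 or below, beside 34.0% and 35.4% of all genes that fell. Of the carriers that rose, 23.4% and 20.3% were at 4 or above, beside 26.5% and 28.0% of all genes that rose. The differences between these shares were not tested. In bulk tissue, as here, fewer cells of a type and less RNA per cell cannot be told apart.

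The median fold of the carriers that rose was 3.05 against lean and 2.93 against WKY, and the median of those that fell was 0.295 against lean and 0.278 against WKY. Over all listed genes the median rise was 3.01 against lean and 3.05 against WKY, and the median fall 0.314 and 0.312. Nearest the limits of the list against lean were Slc7a6, at 2.00 times the lean level, and Slc11a2, at 0.463 of it, in the authors' deposited table. At the far ends stood the proton exchanger gene Slc9a2 at 0.036 of the lean level and the vesicular amine carrier gene Slc18a1 at 17.0 times it in the authors' deposited table. Because both comparisons use the same 6 obese rats, their values are given side by side and not as support for each other.

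**Figure D1:**
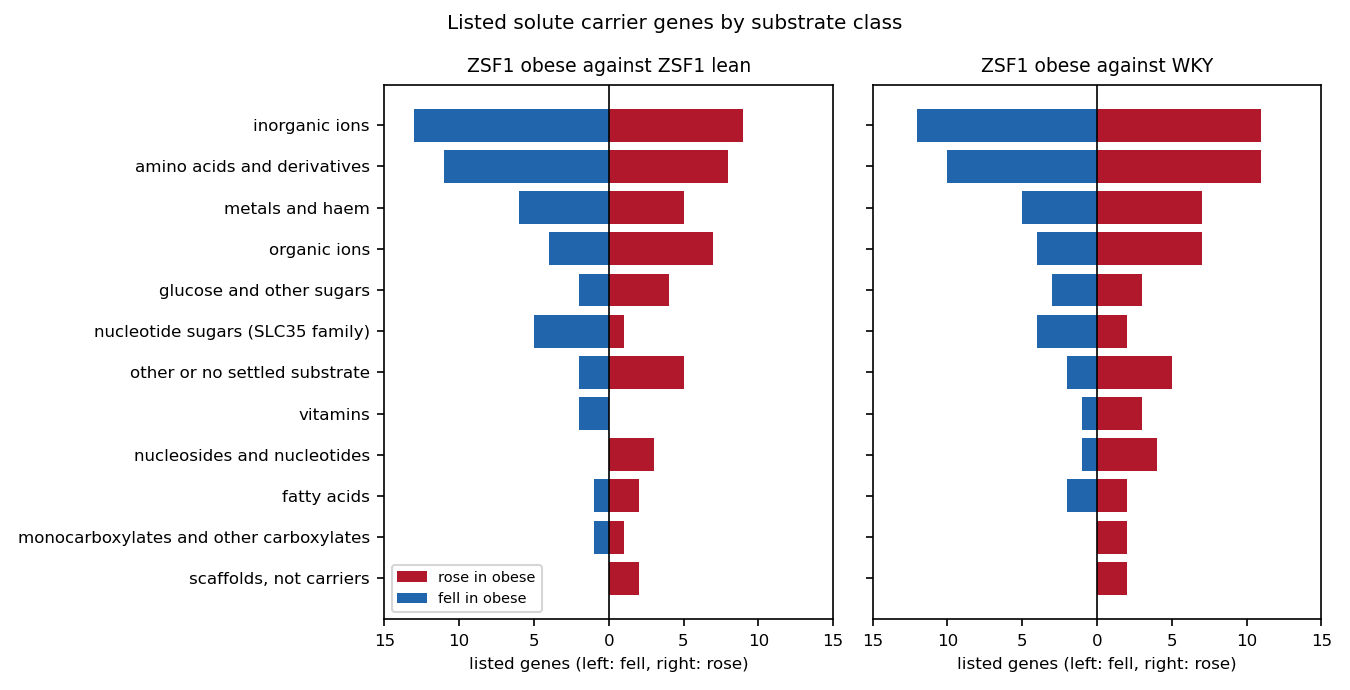
Number of listed solute carrier genes that rose (red, to the right) or fell (blue, to the left) in ZSF1 obese hearts, by substrate class, against ZSF1 lean (left panel) and WKY (right panel). Inorganic ions had 13 falls and 9 rises against lean, amino acids 11 falls and 8 rises, and the nucleosides 3 rises and no fall.

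Within a family, members often went in opposite directions. Of the 19 families with 2 or more listed carriers against lean, 18 held both rises and falls, and the exception was Slc8, whose 2 counted members rose (Slc8a1, left out by name, is not counted). Of the 24 such families against WKY, 20 held both directions, and Slc1, Slc15, Slc52 and Slc8 held rises alone. Rises and falls were about equally common among all listed genes, so a family with several listed members could hold both by that alone, and this was not tested.

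3 pairs show the split within a family. Slc38a1, which takes up glutamine and other neutral amino acids with sodium, stood at 0.079 of the lean level (adjusted p = 7.08e-99) and 0.091 of the WKY level (adjusted p = 2.15e-88) in the authors' deposited tables. Its relative Slc38a5 was 6.82 times the lean level (adjusted p = 7.21e-09) and 2.62 times the WKY level (adjusted p = 0.0243) in the authors' deposited tables. Slc41a3, a magnesium carrier, stood at 0.09 of the lean level and 0.075 of the WKY level, while Slc41a2, another magnesium carrier, was at 3.58 and 3.20 times those levels in the authors' deposited tables. Slc35d1, which brings UDP-sugars into the endoplasmic reticulum, stood at 0.283 of the lean and 0.448 of the WKY level, while Slc35d2, a Golgi nucleotide sugar carrier, was at 3.81 and 3.18 times those levels in the authors' deposited tables.

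The promoters of these 3 pairs are shown because the falling and the rising carriers differed in promoter base composition. Each runs from 250 bases before to 50 bases after the gene's start in RefSeq (GRCr8, 5′ to 3′ on the gene's strand), and capitals mark CpG dinucleotides.
Slc38a1, chr7:129681352-129681651, minus strand: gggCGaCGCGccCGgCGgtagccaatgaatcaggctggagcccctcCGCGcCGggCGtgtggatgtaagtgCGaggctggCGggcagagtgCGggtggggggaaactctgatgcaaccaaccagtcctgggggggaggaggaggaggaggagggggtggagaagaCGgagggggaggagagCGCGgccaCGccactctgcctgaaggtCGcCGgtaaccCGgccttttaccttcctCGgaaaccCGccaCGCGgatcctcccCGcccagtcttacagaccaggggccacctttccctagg
Slc38a5, chrX:16894421-16894720, minus strand: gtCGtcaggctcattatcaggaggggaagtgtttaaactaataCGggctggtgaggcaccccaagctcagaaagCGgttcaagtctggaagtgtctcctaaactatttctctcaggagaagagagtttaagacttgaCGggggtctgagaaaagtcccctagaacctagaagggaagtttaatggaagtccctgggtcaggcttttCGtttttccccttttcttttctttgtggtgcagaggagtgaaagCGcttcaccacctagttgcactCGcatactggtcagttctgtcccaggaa
Slc41a3, chr4:124684717-124685016, plus strand: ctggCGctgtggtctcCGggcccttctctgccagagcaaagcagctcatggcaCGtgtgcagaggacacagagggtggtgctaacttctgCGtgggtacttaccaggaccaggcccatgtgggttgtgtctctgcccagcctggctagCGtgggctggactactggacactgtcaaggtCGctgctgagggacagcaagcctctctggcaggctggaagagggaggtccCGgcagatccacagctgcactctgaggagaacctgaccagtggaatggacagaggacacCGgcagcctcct
Slc41a2, chr7:22271063-22271362, plus strand: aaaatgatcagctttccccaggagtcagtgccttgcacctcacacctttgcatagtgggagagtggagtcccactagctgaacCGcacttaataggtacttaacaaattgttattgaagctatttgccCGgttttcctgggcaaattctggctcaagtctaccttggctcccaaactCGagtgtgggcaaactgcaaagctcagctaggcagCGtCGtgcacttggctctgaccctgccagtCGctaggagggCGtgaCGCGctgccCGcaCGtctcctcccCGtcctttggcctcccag
Slc35d1, chr5:123209783-123210082, minus strand: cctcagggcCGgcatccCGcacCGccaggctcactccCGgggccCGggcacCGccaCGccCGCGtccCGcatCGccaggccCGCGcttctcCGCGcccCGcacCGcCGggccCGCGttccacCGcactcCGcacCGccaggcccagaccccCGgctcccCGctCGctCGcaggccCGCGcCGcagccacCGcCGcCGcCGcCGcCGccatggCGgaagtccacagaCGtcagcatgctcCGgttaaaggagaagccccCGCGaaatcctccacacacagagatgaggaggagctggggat
Slc35d2, chr17:993668-993967, plus strand: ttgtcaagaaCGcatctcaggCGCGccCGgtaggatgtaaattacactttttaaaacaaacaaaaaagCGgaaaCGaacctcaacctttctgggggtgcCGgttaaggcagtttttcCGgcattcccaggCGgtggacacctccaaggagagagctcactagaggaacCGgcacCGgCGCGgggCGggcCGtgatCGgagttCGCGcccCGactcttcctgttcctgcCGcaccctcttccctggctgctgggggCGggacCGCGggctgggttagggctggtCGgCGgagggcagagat

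In these 3 pairs the carrier that fell had the promoter richer in G and C, and other split families went the other way. In the choline family Slc44a1, which rose, had 80.7% G and C and Slc44a3, which fell, 61.7%, and in the organic cation family Slc22a18, which rose, had 63.0% and Slc22a3, which fell, 50.7%. Likewise Slc2a9 and Slc39a8, which rose, had 57.0% and 59.3%, and Slc2a12 and Slc39a2, which fell, 48.0% and 53.7%. The promoter of Slc38a1 held 68.0% G and C with 24 CpGs, and that of Slc38a5 held 48.3% with 7. For Slc41a3 the share was 61.7% with 8 CpGs, and for Slc41a2 it was 54.7% with 12, so CpGs did not follow the share there. For Slc35d1 it was 75.7% with 41 CpGs, and for Slc35d2 60.7% with 25. The pairs shown and those set against them were chosen after their values had been seen, so they show no rule.

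RefSeq gave a promoter for 85 of the 115 genes. Against lean, the promoters of the 36 carriers that fell had a median of 65.5% G and C and 21.5 CpGs, and those of the 35 that rose had 57.0% and 10. Against WKY, the 34 that fell had 65.0% and 20 CpGs, and the 41 that rose had 55.7% and 8. In percent of G and C, all listed genes leaned the same way by less: against lean 61.3% for 2072 falling and 58.3% for 2220 rising genes, and against WKY 61.7% for 2045 falling and 59.0% for 2260 rising genes. Their median CpG count was 21 for falling and 15 for rising genes in both comparisons, so the falling carriers lay near all falling genes and the rising carriers below all rising genes. The median over 19005 RefSeq promoters of protein-coding genes was 55.3%. Whether the carriers differ from other listed genes in this was not tested.

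The GC box GGGCGG, searched on both strands, was present in 66.7% of promoters of carriers that fell against lean and 45.7% of those that rose, beside 62.1% and 53.2% for all listed genes that fell and rose and 43.1% of all promoters. The TATA box TATAAA was present in 2.78% of those that fell against lean and 11.4% of those that rose, that is in 1 and 4 promoters, beside 6.23% and 9.55% for all listed genes that fell and rose and 13.1% of all promoters. The CCAAT box was present in 33.3% of those that fell and 42.9% of those that rose, while all listed genes ran the other way with 39.0% and 34.3%, and 38.4% of all promoters held it. The E-box CACGTG was present in 16.7% of those that fell and 5.71% of those that rose, beside 9.03% and 6.31% for all listed genes that fell and rose and 7.27% of all promoters. Against WKY the carriers that fell and rose held the GC box in 64.7% and 39.0% and the TATA box in 5.88% and 9.76%. They held the CCAAT box in 29.4% and 43.9% and the E-box in 14.7% and 9.76%. All listed genes that fell and rose against WKY held the GC box in 62.5% and 53.8% and the TATA box in 6.45% and 9.34%. Those genes held the CCAAT box in 38.3% and 34.1%, the other way from the carriers, and the E-box in 8.61% and 6.73%. The differences between these shares were not tested. A match of letters is a description of the window and no evidence of a factor bound there.

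**Figure D2:**
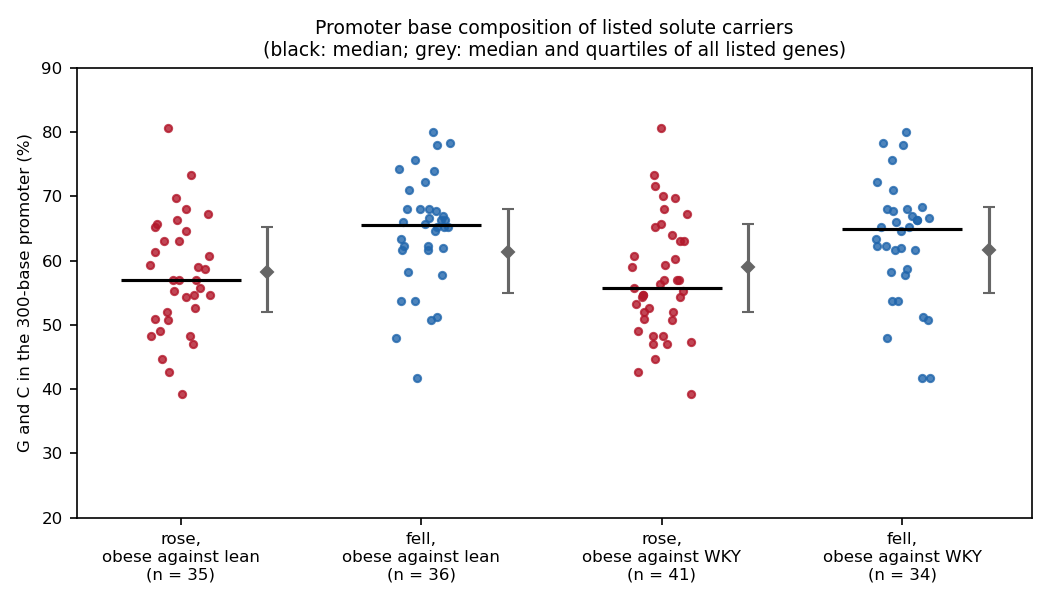
Percent of G and C in the RefSeq promoter of each listed carrier that rose (red) or fell (blue) in ZSF1 obese hearts, against ZSF1 lean (2 columns on the left) and WKY (2 on the right); black lines are medians, and grey diamonds with bars are medians and quartiles of all listed genes. The carriers that fell had medians of 65.5% and 65.0%, and those that rose 57.0% and 55.7%, with wide overlap.

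Amino acid carriers formed one of the largest classes, with 22 of the 115 genes. Against lean 11 fell and 8 rose (median fold 0.451), and against WKY 10 fell and 11 rose (median fold 2.06). No listed fold lies between 0.5 and 2, so a median can cross that gap when few genes enter or leave a list. All 83 carriers of any class that were listed in both obese comparisons had the same direction in both. The comparisons share the obese rats, so this is no support for either. RefSeq names 71 genes of this class. The creatine carrier and a pair of synaptic vesicle carriers were among the falls, and carriers known from macrophages were among the rises.

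Slc6a8, the creatine carrier that supplies heart muscle with the substrate of creatine kinase, stood at 0.195 of the lean level and 0.163 of the WKY level. Its adjusted p, 3.51e-260 against lean and 2.76e-162 against WKY, was the smallest of any carrier in both of the authors' deposited tables. Of 9 genes that use creatine or carnitine, 5 fell and 1 rose against lean, and the counts against WKY were the same. Crat, the carnitine acetyltransferase gene, stood at 0.075 of the lean level, Cpt1b at 0.213 and the muscle creatine kinase gene Ckm at 0.245 in the authors' deposited table. Gatm, which makes the precursor of creatine, was 2.50 times the lean and 2.25 times the WKY level in the authors' deposited tables, so the gene for creatine uptake and that for an early step of its synthesis went opposite ways.

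Vesicular carriers of neurons were among the deepest falls. Slc17a7, a vesicular glutamate carrier, stood at 0.062 of the lean level (adjusted p = 6e-30) and 0.159 of the WKY level (adjusted p = 1.55e-10) in the authors' deposited tables. Slc6a17, a synaptic vesicle carrier of neutral amino acids, stood at 0.113 of both levels (adjusted p = 3.57e-114 against lean and 1.99e-122 against WKY) in the authors' deposited tables. Of 6 marker genes of Schwann cells and neurons, 2 rose against lean and 3 against WKY with no fall, and the neuronal markers Th and Dbh were in no list; the part of nerve content in these falls was not tested.

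Other falls were those of Slc16a10, which lets aromatic amino acids through, at 0.145 of the lean and 0.218 of the WKY level, and Slc7a4, at 0.171 and 0.174, in the authors' deposited tables. Slc7a15 stood at 0.237 of the lean and 0.379 of the WKY level in the authors' deposited tables. The proton-coupled lysosomal carrier gene Slc36a1 stood at 0.438 and 0.398, Slc38a3, a glutamine carrier, at 0.441 and 0.435, and Slc38a2, a neutral amino acid carrier that cells raise when starved of amino acids, at 0.451 and 0.415 of the lean and WKY levels in the authors' deposited tables. Slc7a2, a cationic amino acid carrier, was listed against lean alone, with 0.454 of the lean level (adjusted p = 0.01028), in the authors' deposited table.

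Among the rises, Slc7a7, which exports arginine and lysine and is abundant in macrophages, was 5.03 times the lean level (adjusted p = 9.38e-27) and 3.92 times the WKY level (adjusted p = 5.57e-17) in the authors' deposited tables. Slc15a3, a lysosomal carrier of histidine and small peptides in immune cells, was at 3.18 and 2.91 times the lean and WKY levels in the authors' deposited tables. Macrophage markers rose with them: 5 of 6 against lean, by 2.53 to 5.98 times, and 6 of 6 against WKY, by 2.30 to 6.50 times, in the authors' deposited tables. The part of macrophage content in the rise of these carriers was not tested.

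Slc38a4, another sodium-coupled carrier, was 4.20 times the lean and 3.03 times the WKY level, and Slc6a12, the betaine and GABA carrier, 3.58 and 2.93 times, in the authors' deposited tables. Slc1a5, a glutamine exchanger, was 2.14 and 2.07 times those levels, Slc6a9, a glycine carrier, 2.14 and 2.06 times, and Slc7a6, a relative of Slc7a7, 2.00 and 2.28 times in the authors' deposited tables. Slc7a6 has a neighbour on the opposite strand, Slc7a6os, and the strand setting of the counting is not given, so reads of the pair may not have been told apart. Slc15a2, a peptide carrier, Slc1a1, a glutamate carrier, and Slc6a7, a proline carrier, were listed against WKY alone, at 2.71, 2.33 and 2.30 times the WKY level in the authors' deposited table. The heavy chain gene Slc3a2 and the light chains Slc7a5 and Slc7a11, which form the best known amino acid exchangers, were in no list, and neither was the taurine carrier gene Slc6a6.

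Genes around amino acid supply were mixed. Of 10 genes of the amino acid response, the factor gene Atf4 among them, 3 rose and none fell in each obese comparison. Of all protein-coding genes 23.4% were listed against lean and 23.5% against WKY. Atf4, Atf3, Ddit3, Eif2ak4, Psat1 and Trib3 were in neither list. Sesn2 and Phgdh were both 2.25 times the lean level in the authors' deposited table. Phgdh was listed against lean alone and Asns against WKY alone. Of 10 genes by which the lysosome senses amino acids, 4 fell and 1 rose in each obese comparison. Rptor, a subunit of the growth kinase complex mTORC1, stood at 0.369 and Sesn1 at 0.27 of the lean level, while the arginine sensor gene Castor1 was 4.17 times it, in the authors' deposited table.

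Of 9 listed sugar carriers, 4 rose and 2 fell against lean, and 3 rose and 3 fell against WKY. Slc2a12, a glucose carrier of muscle and fat, stood at 0.319 of the lean level (adjusted p = 1.64e-27) and 0.308 of the WKY level (adjusted p = 9.01e-25) in the authors' deposited tables. Slc2a1, the widespread basal glucose carrier, had 0.409 of the WKY level (adjusted p = 5.73e-19) and was absent from the list against lean in the authors' deposited tables. Slc37a1, a sugar phosphate carrier of the endoplasmic reticulum, stood at 0.435 and 0.457 of the lean and WKY levels in the authors' deposited tables.

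Among the sugar carriers that rose, Slc2a9, which carries urate, was 2.33 times the lean and 3.03 times the WKY level, and Slc2a10, 2.51 and 2.77 times, in the authors' deposited tables. Slc50a1, a sugar carrier of the Golgi, was 2.83 times the lean level (adjusted p = 1.7e-32) and Slc2a6 2.22 times it in the authors' deposited table, and both were absent from the list against WKY. Slc2a5, the fructose carrier, was 3.32 times the WKY level (adjusted p = 9.5e-06) in the authors' deposited table. Of 9 genes for trapping glucose and for glucose carrier traffic, 4 fell and 2 rose in each obese comparison. Hk2 and Hk1, hexokinases that lock glucose in the cell, stood at 0.287 and 0.382 of the lean level, while Hk3, the hexokinase of leukocytes, was 12.4 times it, in the authors' deposited table. Arrdc4, whose mouse counterpart lowers glucose uptake, was 3.66 times the lean and 3.86 times the WKY level in the authors' deposited tables.

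Of 3 listed monocarboxylate carriers, Slc16a3, the lactate exporter of glycolytic cells, was 2.64 times the lean level (adjusted p = 1.06e-05) and 2.30 times the WKY level (adjusted p = 1.19e-05) in the authors' deposited tables. Slc16a6, which exports ketone bodies from the zebrafish liver, stood at 0.435 of the lean level (adjusted p = 2.11e-18) in the authors' deposited table and was absent against WKY. Slc16a11 was 2.93 times the WKY level (adjusted p = 5.69e-08) in the authors' deposited table and was absent against lean. Among 6 genes of the carriers' ancillary proteins and of lactate dehydrogenase, 4 fell and 1 rose in each obese comparison. Bsg, the main partner of the lactate carriers at the surface, stood at 0.382 of the lean level and Ldha at 0.291, while Emb, the alternative partner, was 6.23 times it, in the authors' deposited table. The pair of partner genes thus moved in opposite directions against lean, and against WKY they stood at 0.349 for Bsg and 4.82 times for Emb in the authors' deposited table.

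Of 9 nucleoside and nucleotide carriers that RefSeq names, 3 rose and none fell against lean, and 4 rose and 1 fell against WKY. Slc29a3, a lysosomal nucleoside carrier that macrophages depend on, was 4.35 times the lean level (adjusted p = 4.44e-35) and 4.63 times the WKY level (adjusted p = 5.43e-26) in the authors' deposited tables. Slc28a2, which takes up purine nucleosides with sodium, was 2.51 times the lean level (adjusted p = 7.65e-21) and 3.65 times the WKY level (adjusted p = 1.76e-24) in the authors' deposited tables. Slc17a9, the vesicular nucleotide carrier, was 3.92 and 4.89 times the lean and WKY levels in the authors' deposited tables, and Slc43a3, a purine base carrier, 2.27 times the WKY level alone. Slc28a3 went the other way at 0.225 of the WKY level (adjusted p = 4.16e-06) in the authors' deposited table and was absent against lean. Slc29a1, the main adenosine carrier of the cell surface, was in no list. Of 14 enzymes and receptors of nucleosides, 5 rose and 2 fell in each obese comparison. Among all protein-coding genes 23.4% were listed against lean and 23.5% against WKY, and 53.4% and 54.0% of all listed genes rose. The counts of the other gene lists that work with the carriers stand beside the same shares. Adenosine receptor genes went both ways in each obese comparison. Adora1, the adenosine receptor that slows the heart, stood at 0.075 of the lean level and the adenosine kinase gene Adk at 0.172, while Pnp and Upp1, which split purine nucleosides and uridine, were 2.93 and 2.13 times it, in the authors' deposited table.

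**Figure D3:**
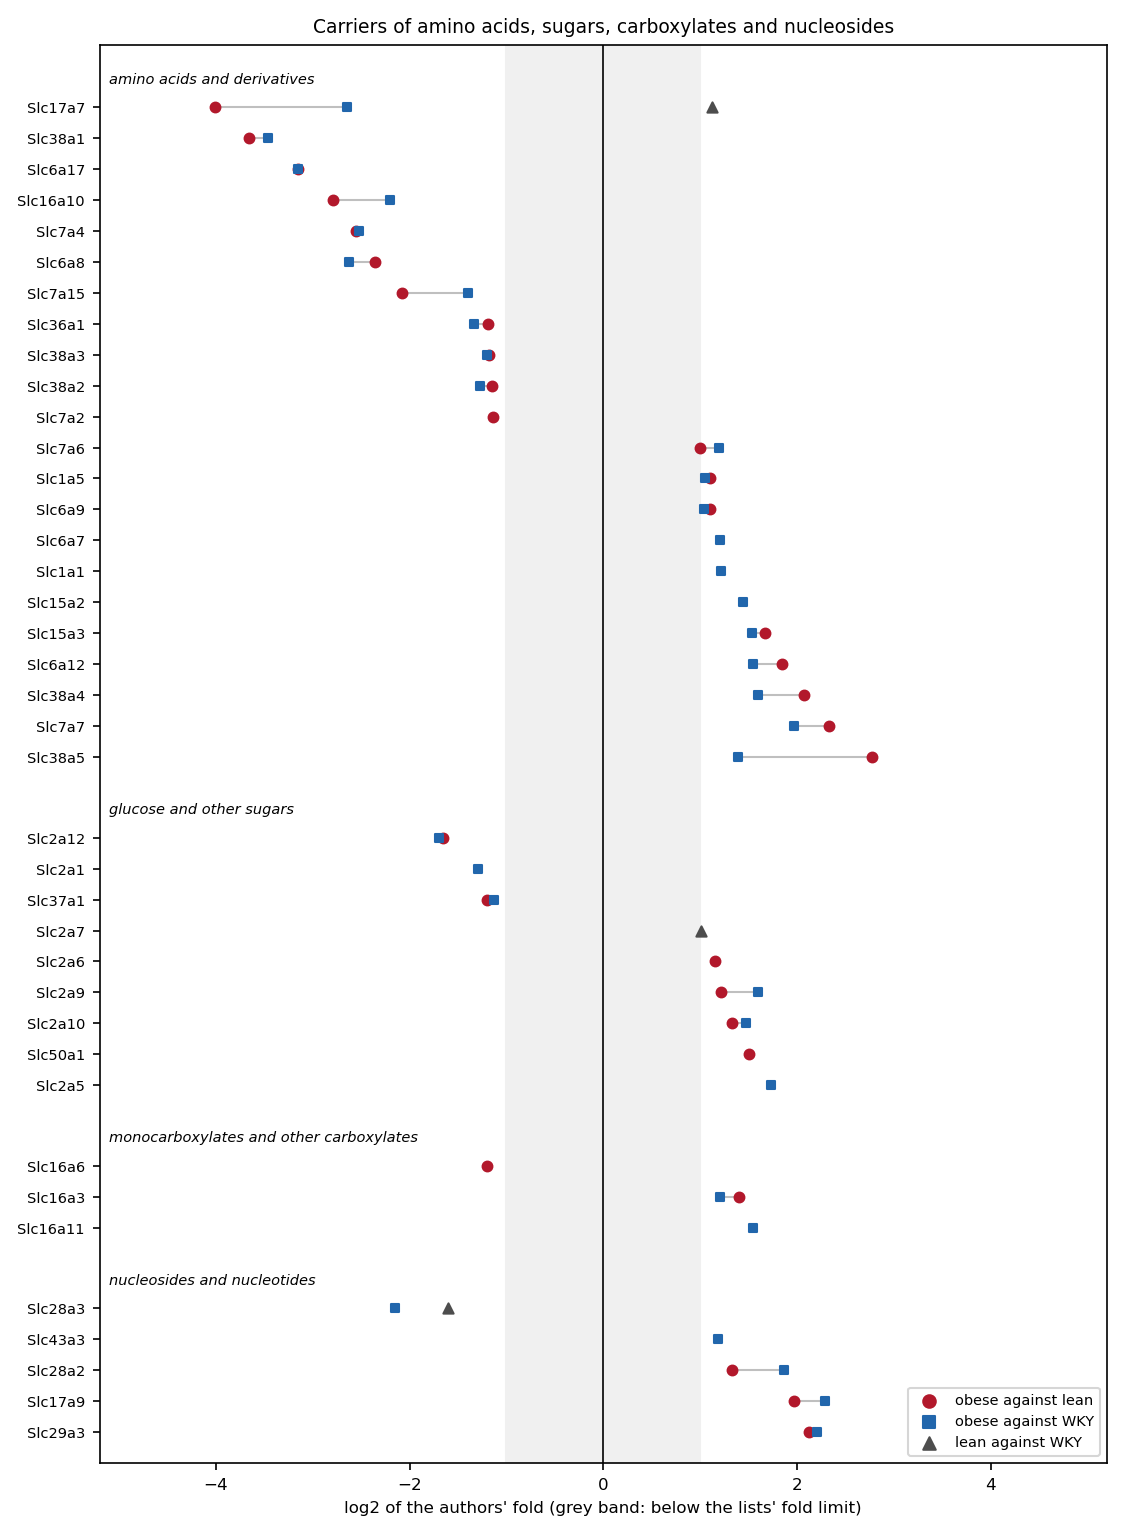
log2 of the authors' fold for each listed carrier of amino acids, sugars, carboxylates and nucleosides: red circles, ZSF1 obese against ZSF1 lean; blue squares, ZSF1 obese against WKY; grey triangles, ZSF1 lean against WKY; lines join the obese comparisons. Slc17a7, Slc38a1 and Slc6a17 lie farthest left (log2 fold -4.01, -3.66 and -3.15 against lean), and Slc38a5 and Slc7a7 farthest right (2.77 and 2.33).

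Inorganic ion carriers were the largest class with 25 genes. Against lean 13 fell and 9 rose (median fold 0.4), and against WKY 12 fell and 11 rose (median fold 0.379). RefSeq names 58 genes of this class. Most listed members of the SLC4 bicarbonate family fell, and proton, chloride, phosphate and calcium carriers went both ways.

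Proton exchangers spanned a wide range of folds. Slc9a2 stood at 0.036 of the lean level (adjusted p = 3.37e-23), the lowest fold of any carrier, and at 0.222 of the WKY level (adjusted p = 0.002233) in the authors' deposited tables. Slc9a3, known for sodium uptake in kidney and gut, stood at 0.145 and 0.198 of the lean and WKY levels, and Slc9a8, an exchanger of the Golgi, at 0.178 (adjusted p = 5.86e-56) and 0.218 in the authors' deposited tables. Slc9a9, an endosomal exchanger, was 3.05 and 3.60 times the lean and WKY levels in the authors' deposited tables. Slc9a5 was 2.35 times the lean level (adjusted p = 0.02807) and 4.82 times the WKY level, and Slc9b2 2.77 times the WKY level alone, in the authors' deposited tables. Slc9a3r1 and Slc9a3r2, which share the prefix but encode scaffold proteins that bind exchangers and not carriers, were 2.57 and 2.87 times the lean level and 2.60 and 3.32 times the WKY level in the authors' deposited tables.

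Members of the SLC4 family, classed by family as bicarbonate carriers, fell in 4 of 5 listed cases against lean and in 3 of 4 against WKY. Among all listed genes 46.6% fell against lean and 46.0% against WKY, and the difference was not tested on so few genes. Slc4a1, the red cell exchanger left out by name, is not counted. It had 0.374 of the lean level and 2.36 times the WKY level in the authors' deposited tables. Slc4a3, the chloride-bicarbonate exchanger of heart and brain, stood at 0.314 of the lean level (adjusted p = 4.43e-38) and 0.281 of the WKY level (adjusted p = 1.1e-42) in the authors' deposited tables. Slc4a4, a sodium-bicarbonate cotransporter that alkalinises heart cells, stood at 0.295 (adjusted p = 6.13e-35) and 0.243 (adjusted p = 2.33e-45) of those levels in the authors' deposited tables. Slc4a7, a second such cotransporter, stood at 0.371 and 0.379, and Slc4a8 at 0.444 of the lean level alone (adjusted p = 0.03019), in the authors' deposited tables. Slc4a11, placed in this class by its family name alone, was higher, at 3.32 and 2.77 times the lean and WKY levels, in the authors' deposited tables. Of 10 carbonic anhydrases, which make the bicarbonate these carriers move, 3 rose and 1 fell against lean and 2 rose and 1 fell against WKY. Ca14, an enzyme of the heart muscle membrane, stood at 0.235 of the lean and 0.182 of the WKY level, while Ca4, which is anchored to the outer membrane face, was 2.64 and 3.46 times those levels, in the authors' deposited tables. Ca5b, a mitochondrial carbonic anhydrase, was 2.58 times the lean level in the authors' deposited table.

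Chloride and other anion carriers went both ways. Slc12a7, a potassium-chloride cotransporter, stood at 0.204 of the lean level (adjusted p = 7.41e-96) and 0.248 of the WKY level (adjusted p = 1.55e-73) in the authors' deposited tables. Slc26a9, a chloride carrier, stood at 0.11 and 0.139, Slc26a3, a chloride-bicarbonate exchanger, at 0.306 and 0.195, and Slc26a2, a sulphate carrier, at 0.429 and 0.361 of the lean and WKY levels in the authors' deposited tables. Slc26a10 was 3.78 and 3.89 times those levels and Slc12a9 2.53 and 3.14 times in the authors' deposited tables. Slc12a5, the potassium-chloride cotransporter of neurons, was 3.01 times the lean level (adjusted p = 0.0207), and Slc12a8 3.94 times the WKY level, each in 1 of the authors' deposited tables. Slc12a2, the sodium-potassium-chloride cotransporter of most cells, was in no list. Of 8 kinases and kinase-binding scaffolds that set these cotransporters, 2 fell and none rose in each obese comparison. Wnk2 stood at 0.183 of the lean and 0.144 of the WKY level, the kinase gene Stk39 at 0.493 of the lean level alone and the scaffold gene Cab39l at 0.473 of the WKY level alone in the authors' deposited tables.

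The SLC20 phosphate carriers and the SLC24 exchangers split, while Slc8a2 and Slc8b1 rose, with Slc8a1 left out by name. Slc20a2, a sodium-phosphate carrier, stood at 0.23 of the lean level (adjusted p = 4.28e-60) and 0.225 of the WKY level (adjusted p = 2.46e-55), while its relative Slc20a1 was 2.17 times the WKY level (adjusted p = 1.84e-28) and absent against lean, in the authors' deposited tables. Slc24a3, a sodium/calcium-potassium exchanger, stood at 0.179 and 0.241 of the lean and WKY levels, while Slc24a1, best known from photoreceptors, was 6.59 and 4.38 times them, in the authors' deposited tables. Slc8a2, a sodium-calcium exchanger of the brain, was 2.25 times the lean level (adjusted p = 0.009684) and 4.89 times the WKY level in the authors' deposited tables. Slc8b1, the exchanger that lets calcium out of mitochondria, was 2.14 and 2.22 times those levels in the authors' deposited tables.

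Of 13 genes of the sodium pump, on whose gradient many of these carriers run, 6 fell and 5 rose in each obese comparison. Fxyd5 and Fxyd6, small regulators of the pump, were 5.94 and 3.36 times the lean level in the authors' deposited table.

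Metal carriers numbered 13, with 6 falls and 5 rises against lean (median fold 0.463) and 5 falls and 7 rises against WKY (median fold 2.17). As with the amino acid carriers, these medians lie on either side of the gap between 0.5 and 2. No metal carrier listed in both comparisons changed direction. Magnesium carriers split, with Slc41a1, which exports magnesium at the cell surface, at 0.351 of the lean level (adjusted p = 1.9e-63) and 0.297 of the WKY level (adjusted p = 1.74e-68) in the authors' deposited tables. Slc41a3 had an adjusted p of 7.25e-101 against lean and 1.51e-85 against WKY, and Slc41a2, the member that rose, 1.45e-06 and 3.5e-05, in the authors' deposited tables.

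Zinc carriers went both ways. Slc39a2 stood at 0.082 of both the lean level (adjusted p = 1.07e-18) and the WKY level (adjusted p = 1.12e-22), and Slc30a9 at 0.291 (adjusted p = 2.05e-117) and 0.283 (adjusted p = 1.54e-59) in the authors' deposited tables. Slc39a14, which takes up zinc, iron and manganese, stood at 0.409 and 0.392 of those levels, while Slc39a8, a close relative, was 2.33 and 4.11 times them, in the authors' deposited tables. Slc39a10 was 2.03 and 2.23 times the lean and WKY levels and Slc39a5 4.23 and 2.38 times in the authors' deposited tables. Slc39a6 and Slc39a11 were listed against WKY alone, at 2.23 and 2.1 times its level, in the authors' deposited table. Mtf1, the factor by which cells sense zinc, stood at 0.376 of the lean and 0.448 of the WKY level, and the zinc-binding Mt2A and Mt3 were 3.34 and 3.71 times the WKY level and absent against lean, in the authors' deposited tables. Of that list of 5, no other gene was listed in an obese comparison.

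The 2 listed iron carriers of the SLC11 family went opposite ways against lean. Slc11a1, which pumps iron and manganese out of the phagosome of macrophages, was 3.34 times the lean level (adjusted p = 4.37e-09) and 5.78 times the WKY level (adjusted p = 1.42e-16) in the authors' deposited tables. Slc11a2, which releases transferrin-bound iron from endosomes, stood at 0.463 of the lean level (adjusted p = 5.44e-38) and was absent against WKY in the authors' deposited table. Slc40a1, the only known iron exporter of animal cells, was in no list. Macrophage markers rose beside Slc11a1, as given for Slc7a7, and their part in its rise was not tested. Of 15 genes of iron and copper handling, 2 fell and the rest of those listed rose, 5 rows against lean and 6 against WKY, with Ftl1 counted under 2 identifiers. Tfrc, the transferrin receptor, stood at 0.279 of the lean level and the iron sensor gene Ireb2 at 0.403, while Heph, which oxidises exported iron, was 3.25 times it and the ferritin light chain gene Ftl1 3.66 times under the identifier ENSRNOG00000020843, in the authors' deposited table. Ferritin light chain genes have near-identical copies, so that value is uncertain.

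**Figure D4:**
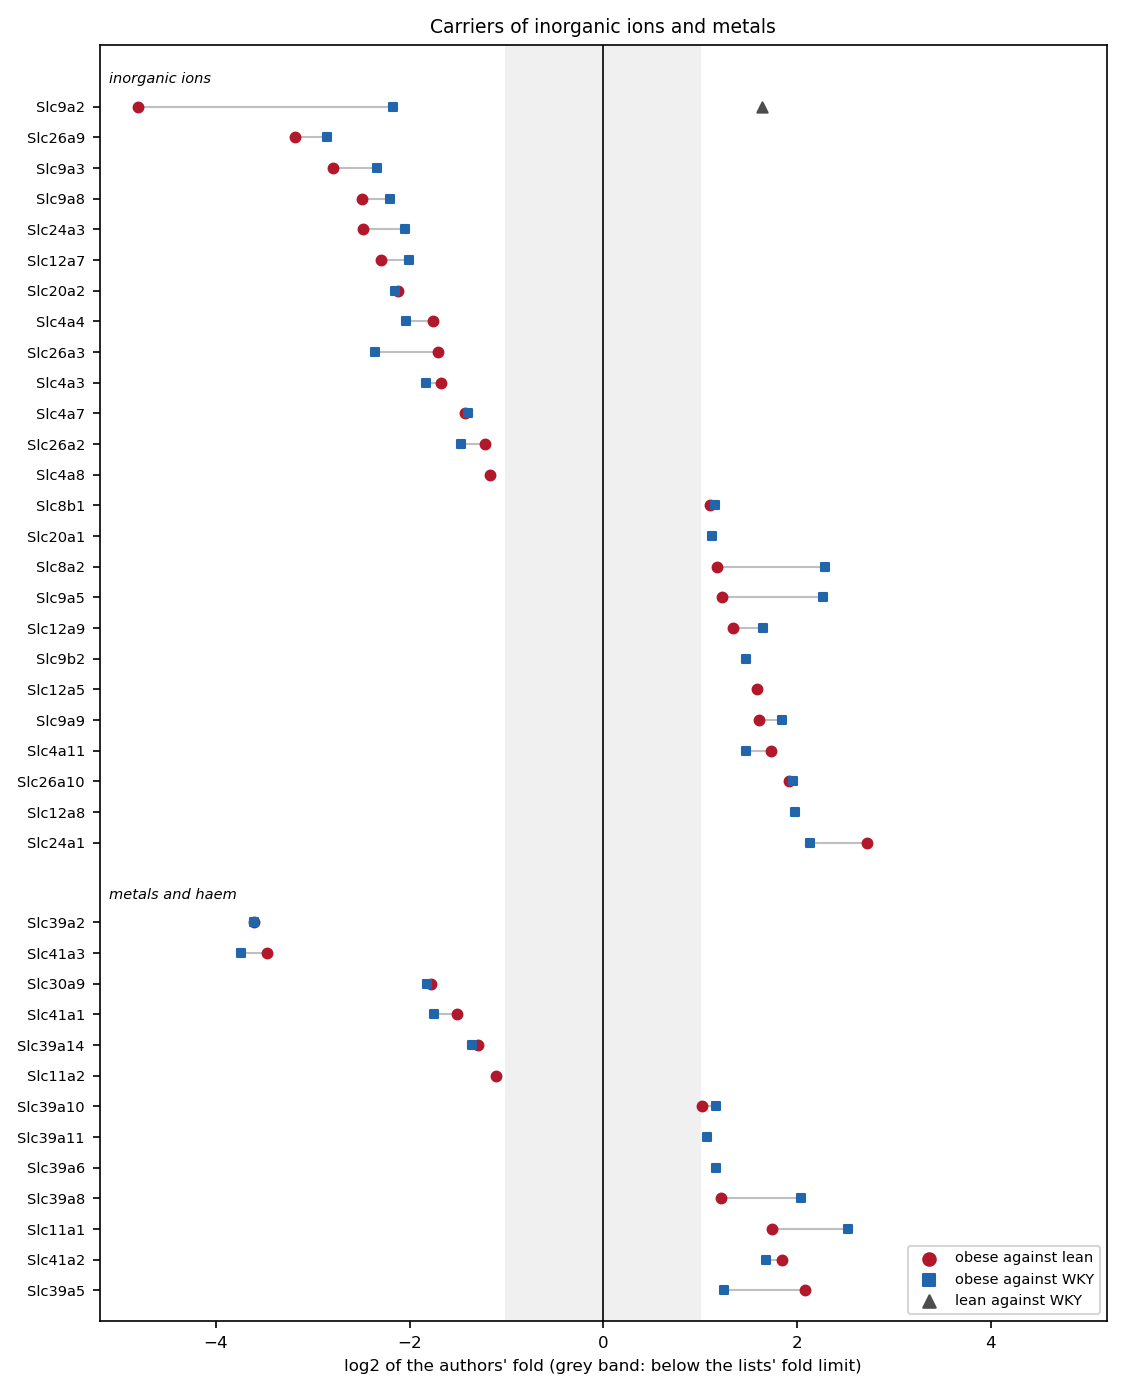
log2 of the authors' fold for each listed carrier of inorganic ions and of metals, with symbols for the 3 comparisons as in the legend and lines joining the obese ones. Slc9a2 shows the widest gap (log2 fold -4.80 against lean and -2.17 against WKY), and its lean against WKY triangle lies on the opposite side at 1.64.

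Organic ion carriers included the largest rise. Slc18a1, a vesicular monoamine carrier of endocrine cells, was 17.0 times the lean level (adjusted p = 4.61e-13) and 13.7 times the WKY level (adjusted p = 5.35e-09) in the authors' deposited tables. In the class of 12 genes, 7 rose and 4 fell in each obese comparison, with medians of 2.07 against lean and 2.25 against WKY. Slc22a3, which clears monoamines outside neurons, stood at 0.15 of the lean level (adjusted p = 7.8e-20) and 0.173 of the WKY level (adjusted p = 1.22e-16) in the authors' deposited tables. Slc47a1, which exports organic cations, stood at 0.206 and 0.328, Slc22a23 at 0.289 and 0.301, and Slc44a3 at 0.354 and 0.275 of the lean and WKY levels in the authors' deposited tables.

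Genes that handle monoamines went both ways against lean. Of 9 genes for monoamine and acetylcholine handling, 3 fell and 1 rose against lean, and 3 fell against WKY. Not all of these falls were of monoamine genes. Among all listed genes, 46.6% fell against lean and 46.0% against WKY. Maoa, a monoamine oxidase, stood at 0.078 of the lean and 0.337 of the WKY level, and Ddc, which makes dopamine and serotonin, at 0.134 and 0.151, while Maob was 2.03 times the lean level, in the authors' deposited tables. Of the other organic ion carriers, Slc22a18 was 2.77 times the lean level (adjusted p = 7.42e-39) and 3.81 times the WKY level (adjusted p = 2.61e-37) in the authors' deposited tables. Slc44a5 was 6.11 and 2.77 times the lean and WKY levels, Slc44a1, a choline carrier, 2.07 and 2.25 times, and Slc22a13 3.10 and 3.03 times in the authors' deposited tables. Slc22a15 was 2.08 times the lean level and Slc10a6, a carrier of sulphated steroids, 2.38 times the WKY level, each in 1 of the authors' deposited tables. Slc22a5, the carnitine carrier of heart muscle, was in no list.

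Among fatty acid transport proteins, Slc27a1, the form of heart and skeletal muscle, stood at 0.376 of the lean level (adjusted p = 8.12e-38) and 0.406 of the WKY level (adjusted p = 7.41e-37) in the authors' deposited tables. Slc27a3 and Slc27a6 were 3.43 and 5.82 times the lean level and 4.56 and 3.84 times the WKY level in the authors' deposited tables, and Slc27a2, the liver form, stood at 0.243 of the WKY level alone (adjusted p = 0.01712).

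Both vitamin carriers listed against lean fell, while 3 of the 4 listed against WKY rose. Slc19a1, the reduced folate carrier, stood at 0.301 of the lean level (adjusted p = 4.03e-37) and 0.412 of the WKY level (adjusted p = 8.64e-23) in the authors' deposited tables. Slc5a6, which takes up biotin and pantothenate, stood at 0.438 of the lean level (adjusted p = 1.01e-19) and was absent against WKY in the authors' deposited table. The riboflavin carriers Slc52a3 and Slc52a2 were 3.65 (adjusted p = 3.68e-23) and 2.11 times the WKY level, and Slc46a1, a proton-coupled folate carrier, 2.27 times it, with none of them in the list against lean, in the authors' deposited table. Whether their folds differ between the comparisons was not tested.

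In the SLC35 family, known for carriers of sugar nucleotides, 5 of 6 listed genes fell against lean and 4 of 6 against WKY. Beside them stand 46.6% and 46.0% falling among all listed genes, and the difference was not tested. The class was assigned by family and not by the substrate of each member, so the SLC35 counts are not counts of sugar nucleotide carriers. Slc35f5 stood at 0.152 of the lean level (adjusted p = 8.09e-90) and 0.218 of the WKY level (adjusted p = 6.14e-51) in the authors' deposited tables. Slc35e1 stood at 0.314 and 0.351 of those levels in the authors' deposited tables. Slc35g1 and Slc35g2 stood at 0.206 and 0.354 of the lean level alone, and Slc35f6 at 0.415 of the WKY level alone, in the authors' deposited tables. Slc35b3, which carries the sulphate donor PAPS, was 2.03 times the WKY level in the authors' deposited table.

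The last 7 genes have another substrate or none that is settled. Slc16a5 and Slc16a14, from the monocarboxylate family, were 4.89 and 4.38 times the lean level and 7.01 and 5.24 times the WKY level in the authors' deposited tables. Slc14a1, the urea carrier of red cells and vessels, was 3.18 times the lean level (adjusted p = 0.006075) and 7.36 times the WKY level (adjusted p = 4.52e-05) in the authors' deposited tables. Slc66a3 and Slc49a3 were 3.76 and 2.53 times the lean level and 3.81 and 2.50 times the WKY level in the authors' deposited tables. Slc45a4 and Slc46a3 stood at 0.349 and 0.423 of the lean level and 0.33 and 0.379 of the WKY level in the authors' deposited tables.

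**Figure D5:**
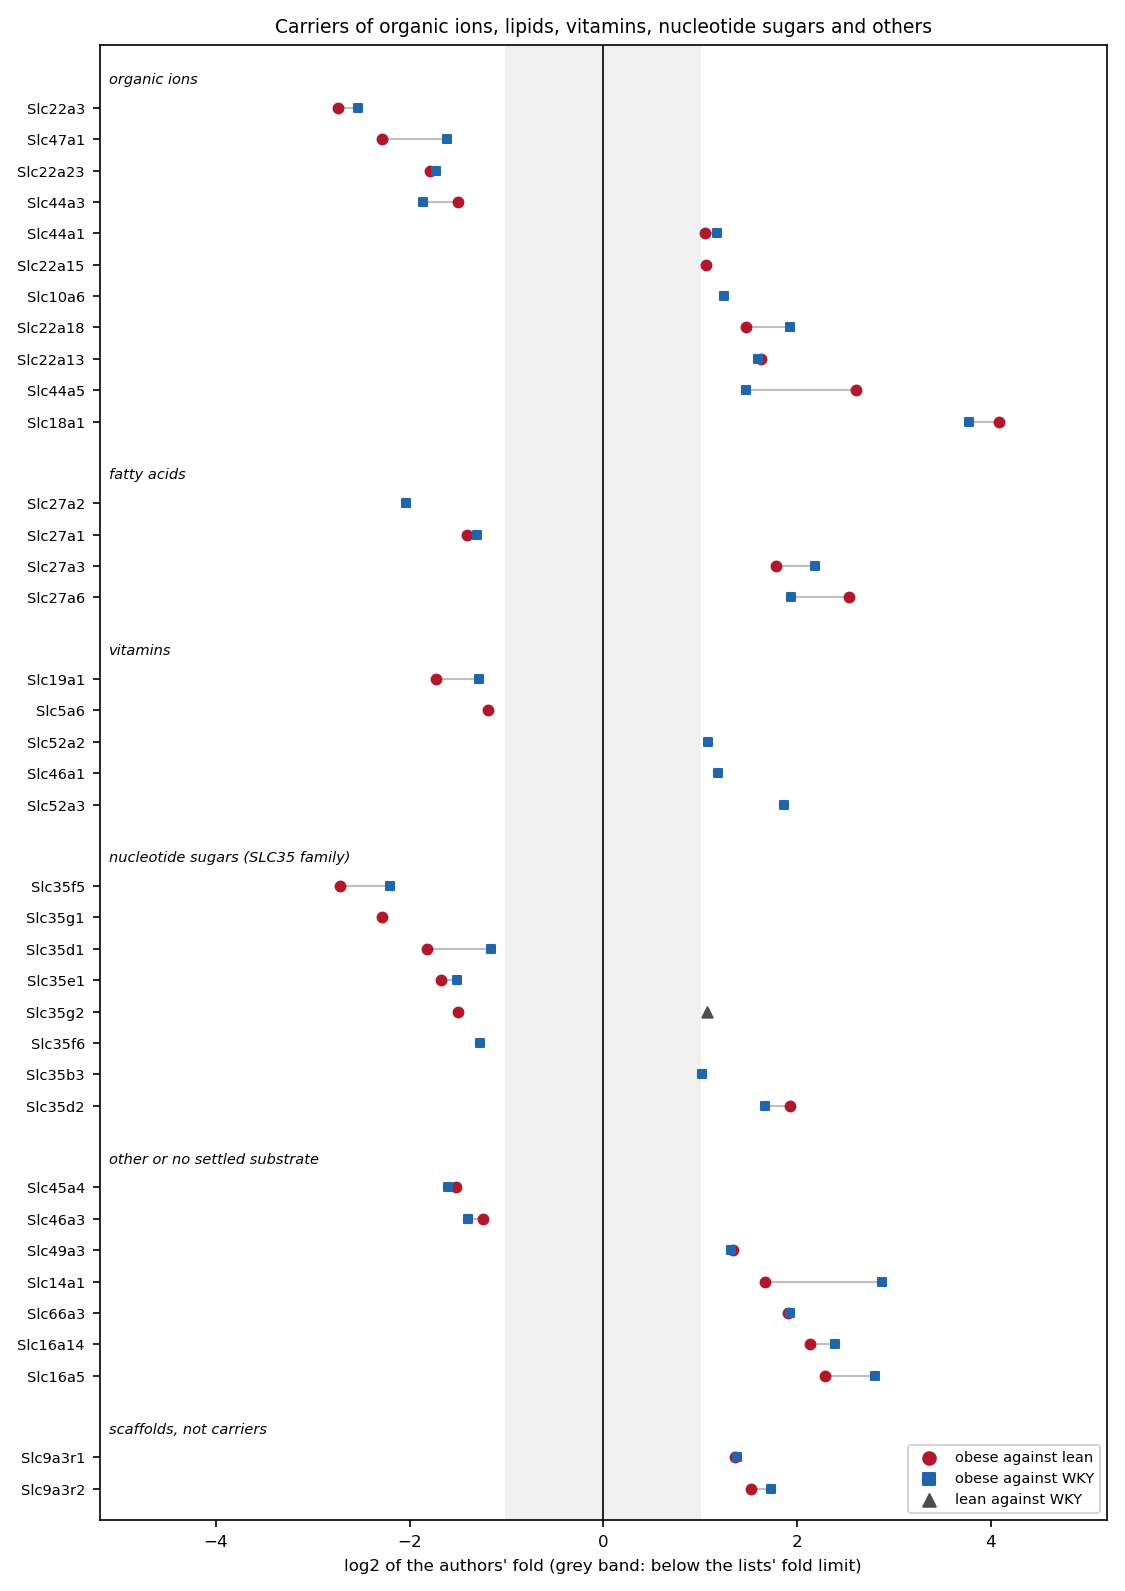
log2 of the authors' fold for the listed carriers reported by name of organic ions, fatty acids, vitamins, nucleotide sugars and other solutes, and for the 2 scaffold genes, with symbols as in the legend. Slc18a1 lies farthest right at 4.09 against lean and 3.78 against WKY, and Slc22a3 and Slc35f5 farthest left at -2.74 and -2.72 against lean.

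ZSF1 lean against WKY hearts listed 5 carriers, of which 4 rose and 1 fell, beside 63.9% rising among all 233 listed genes. Slc9a2 was 3.12 times the WKY level in lean hearts (adjusted p = 9.49e-11) and Slc17a7 2.17 times (adjusted p = 8.22e-08) in the authors' deposited table. Slc35g2 was 2.1 times (adjusted p = 0.0001369) and Slc2a7, a member of the glucose carrier family, 2.01 times the WKY level (adjusted p = 0.0003002) in the authors' deposited table. Slc28a3 stood at 0.33 of the WKY level in lean hearts (adjusted p = 6.91e-11) in the authors' deposited table.

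For 3 of these genes, Slc9a2, Slc17a7 and Slc35g2, the lean hearts were above WKY and the obese hearts below lean. Both folds use the same 6 lean rats, once on top and once below, so opposite directions are favoured by chance and are no support for each other. Slc9a2 and Slc17a7 in obese hearts were below WKY as well, while Slc35g2 was absent from the list for that comparison. Maoa, from the list of monoamine genes, also was higher in lean hearts, at 3.01 times the WKY level in the authors' deposited table, and lower in obese hearts than in both. Slc28a3 was lower than in WKY in both ZSF1 groups, and Slc2a7 was in no obese list. Multiplying the lean over WKY fold by the obese over lean fold gives 0.135 for Slc17a7, where the obese over WKY fold was 0.159, and 0.112 for Slc9a2, where it was 0.222, in the authors' deposited tables.

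Cell type markers were also among the genes listed in the obese comparisons. Of all protein-coding genes, many of which the heart may not express, 23.4% were listed against lean and 23.5% against WKY. Among all listed genes, 53.4% rose against lean and 54.0% against WKY. The marker counts here and above stand beside these shares. Cardiomyocyte markers fell in 3 of 6 cases against lean and 3 of 6 against WKY, with folds of 0.187 to 0.344 and 0.195 to 0.371, and Tnnt2, Tnni3 and Pln were in no list, in the authors' deposited tables. Endothelial markers rose in 5 of 6 cases in each, with folds of 2.44 to 4.96 against lean and 2.66 to 4.66 against WKY in the authors' deposited tables. Fibroblast markers rose in 4 of 6 cases against lean and 5 of 6 against WKY, neutrophil markers in 5 of 6 and 2 of 6 (3 of 6 fell in lean against WKY hearts), and lymphocyte markers in 3 of 6 and 5 of 6. Smooth muscle and pericyte markers rose in 3 of 6 cases and fell in 1 in each obese comparison. Erythroid markers rose in 2 of 6 cases and fell in 1 against lean, and rose in 3 of 6 against WKY. The part of cell composition in these results was not tested.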

How the data were processed

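Left ventricle RNA of 18 male rats was analysed, 6 per group. Per the labels' protocols, a Qiagen RNeasy kit was used for RNA isolation and libraries were made with a stranded TruSeq mRNA kit for single-read HiSeq sequencing. Per the submitters' processing notes, the authors used DESeq2 1.22.2, HTSeq 0.11.2 and HISAT2 2.1.0 on build Rnor_6.0, with order, settings and strand of counting not stated. The labels' batch entry is the same for all rats, and library or sequencing batches are not named and could not be examined.

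Per the file headers, the authors deposited for each gene a fold, which is a linear ratio with the first-named group on top, and an FDR, an adjusted p-value. Both were used as they stand. The ratio and p-value limits were checked on the values. No test was run beyond the authors', since values per rat were not used here, so depth is unknown and the spread between rats enters only through the adjusted p. Nothing in the sources used here ties the rats to litters or cages.

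Python 3.11.15 with pandas 2.3.3, numpy 2.4.6 and matplotlib 3.10.9 selected the carriers by symbol, assigned substrate classes by family, took log2 of the folds and counted rises and falls. All 115 symbols matched RefSeq (GRCr8) by symbol or synonym. Coordinates of RefSeq promoters are of GRCr8 and were not compared with Rnor_6.0. The motif search was tested on simulated sequences.

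The carriers, classes, gene lists and markers were chosen with earlier results of these data known. Named genes are all listed members of a class with 8 or fewer listed, otherwise the 5 largest and 5 smallest folds and the 3 smallest adjusted p-values, all carriers in lean against WKY, 21 anchors, and the 2 smallest adjusted p-values per direction of each partner list. Of the carriers named, 18 fall outside this rule and were named after their values were seen: Slc12a9, Slc1a1, Slc26a2, Slc36a1, Slc38a3, Slc39a11, Slc39a6, Slc44a1, Slc4a3, Slc4a7, Slc4a8, Slc6a7, Slc6a9, Slc7a15, Slc7a2, Slc7a6, Slc8b1 and Slc9b2, and so was Ckm. Some genes that the rule covers are not reported here by name. Alternatives were a stricter fold, a stricter adjusted p, each symbol counted once, carriers without the scaffolds, and the left-out genes added back.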

Additional observations from a re-analysis of the deposited data

How the results depend on the processing

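With folds limited to 4 and above or 0.25 and below, 11 carriers rose and 20 fell in obese against lean, 12 rose and 21 fell in obese against WKY, and 0 rose and 0 fell in lean against WKY, in the authors' deposited tables. Over all listed genes at that limit, 807 rose and 902 fell in obese against lean, and 864 rose and 929 fell in obese against WKY. With the SLC25 family and the 4 left-out genes added back, 52 rose and 72 fell in obese against lean, against 47 and 47 without them, and 65 rose and 69 fell in obese against WKY, against 59 and 44. An adjusted p under 0.01, each symbol counted once, and carriers without the scaffold genes kept each of the 6 counts within 1.5 times its value. Of the counts by substrate class, 2 moved by more than that and 56 did not at an adjusted p under 0.01, and 46 moved and 12 did not at the stricter fold. Leaving out single rats was not run, because it needs values per rat. No paired analysis was possible because the groups share no replicate numbers and the tables hold no values per rat. The lists hold only genes that passed, so small changes and undetected carriers are not seen, and depth is unknown.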
